A study of Mus musculus with 57 samples.

Results

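The Ndfip adaptors and the Nedd4-family ubiquitin ligases were examined as 10 listed genes of the 45337 in the deposited table. The adaptors were Ndfip1 and Ndfip2, and the 8 ligases listed were Nedd4, Nedd4l, Itch, Wwp1, Wwp2, Smurf1, Smurf2 and Hecw1. They were listed by family with earlier results of these data known. Ndfip1 was chosen by its measured values, since it stood higher in Sod1G86R than in wild-type corticospinal neurons. Its values in that contrast, and in every comparison that holds the CSN libraries, are therefore a description with no test. All 10 genes passed the filter on low values in every fit.

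Nedd4-family ligases attach ubiquitin to membrane proteins, receptors and signalling proteins, which are then sorted into endosomes and lysosomes or degraded. They recognise proline-rich PPxY motifs through their WW domains, and substrates without such a motif are reached through adaptors. Ndfip1 and Ndfip2 are membrane proteins of the Golgi and endosomes that carry these motifs, recruit the ligases and relieve their autoinhibition. In neurons Ndfip1 is known for its response to metal and ischaemic stress and for directing the divalent metal transporter Slc11a2 to degradation.

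RNA was measured by SMART-Seq sequencing, a full-length method for low input, in 57 libraries of mouse brain. The cells were corticospinal neurons (CSN), the cortical output neurons that project to the spinal cord, and control cells whose identity the labels do not give. The genotypes were wild type and Sod1G86R, a mutant superoxide dismutase transgene used as a mouse model of motor neuron disease, with the ages 30, 60, 90 and 105, read as days. Sod1G86R CSN gave 3, 4, 4 and 2 libraries in that order and wild-type CSN gave 4 at each age, while control cells gave 3, 3, 4 and 4 in Sod1G86R and 4, 2, 4 and 4 in wild type. The titles hold 32 combinations of age, genotype and number, 25 of them with both cell types. Libraries of the same combination were read as pairs from 1 animal, which the labels do not say. No label states sex, strain background, the promoter of the transgene or how cells were collected. The title of the series names CREB3, a transcription factor, and no CREB3 allele is labelled in these samples.

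Libraries held 22.2 to 64.2 M recovered reads, and levels are normalised reads as deposited (mean ± SD between libraries). Sod1 ran from 80216 to 172179 in Sod1G86R CSN against 1806 to 4562 in wild-type CSN, and in control cells from 38567 to 155479 against 1611 to 4244, so every genotype label matched it. All 10 CSN markers were higher in CSN than in control cells in wild type, and control-cell libraries held neuronal and glial markers together. Fold changes are means over the 4 ages on the log2(value + 34.6) scale from limma, the added 34.6 being 1 ppm of the median library total. A gene passed where its p, adjusted by Benjamini-Hochberg over all genes of the fit, was under 0.05. In bulk RNA, fewer cells of a type and less RNA per cell cannot be told apart.

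In GRCm38, Ndfip1 is at chromosome 18, 38410396 to 38465303 on the plus strand, and Ndfip2 at chromosome 14, 105258573 to 105309298 on the plus strand. The ligase Nedd4 is at chromosome 9, 72662346 to 72749852, and Nedd4l at chromosome 18, 64887705 to 65217828, both on the plus strand. Itch lies at chromosome 2, 155133509 to 155226855 (plus), Wwp1 at chromosome 4, 19608303 to 19708993 (minus), and Wwp2 at chromosome 8, 107436365 to 107558595 (plus). Smurf1 lies at chromosome 5, 144876495 to 144965847, Smurf2 at chromosome 11, 106820066 to 106920715, and Hecw1 at chromosome 13, 14226438 to 14523228, these 3 on the minus strand. Values are sums over all exons of each gene. The kit does not mark strand, and Ndfip2, Nedd4l, Wwp1 and Hecw1 share between 46 and 553 exon bases with a gene on the other strand. The only such partner in the table, Gm12353 beside Wwp1, stood at 1.77% of Wwp1.

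In CSN, both adaptors stood higher in Sod1G86R, Ndfip1 as the chosen gene without a test, and no ligase passed. Ndfip1 averaged 54841 ± 22368 over the 13 Sod1G86R libraries and 22552 ± 8119 over the 16 wild-type ones, a 2.43-fold ratio of means. Ndfip2, the second adaptor, rose from 5849 ± 1014 to 8977 ± 2856, a 1.53-fold ratio of means (limma log2 fold change 0.57, SE 0.128, adjusted p = 0.00258). None of the 8 ligases passed, with log2 fold changes from -0.17 for Smurf1 to 0.20 for Hecw1. Thus 1 of the 9 tested members was higher and 0 were lower. Of the 19093 genes of the fit 19.1% passed, 12.8% as higher and 6.31% as lower. The share of higher members is near that of all genes.

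Ndfip1 was first read library by library. In Sod1G86R CSN it stood at 63381, 42767 and 69959 normalised reads at 30 days, at 62537, 19271, 18052 and 45638 at 60 days, at 92804, 63388, 84157 and 35535 at 90 days, and at 53789 and 61656 at 105 days. In wild-type CSN the same ages gave 18265, 18149, 30243 and 16588, then 20498, 15905, 11272 and 25507, then 30503, 31010, 14224 and 11479, and last 27378, 35081, 19663 and 35062. The 13 Sod1G86R libraries had a median of 61656, and 11 of them lay above the highest wild-type library. The exceptions were replicates 3 and 5 at 60 days, which lay within the wild-type range. At 30, 90 and 105 days the genotypes did not overlap, with Sod1G86R higher, which also held for 4.91%, 7.33% and 12.4% of the 19093 genes at those ages.

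The log2 fold change of Ndfip1 in CSN was 1.27 (SE 0.204), and 6 genes of the fit had a larger rise. By age it was 1.51, 0.85, 1.71 and 1.01 from 30 to 105 days. These values chose the gene and carry no test. The estimate was 1.0 after quantile normalisation and 0.66 with the mitochondrially encoded share as a covariate.

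**Figure D1:**
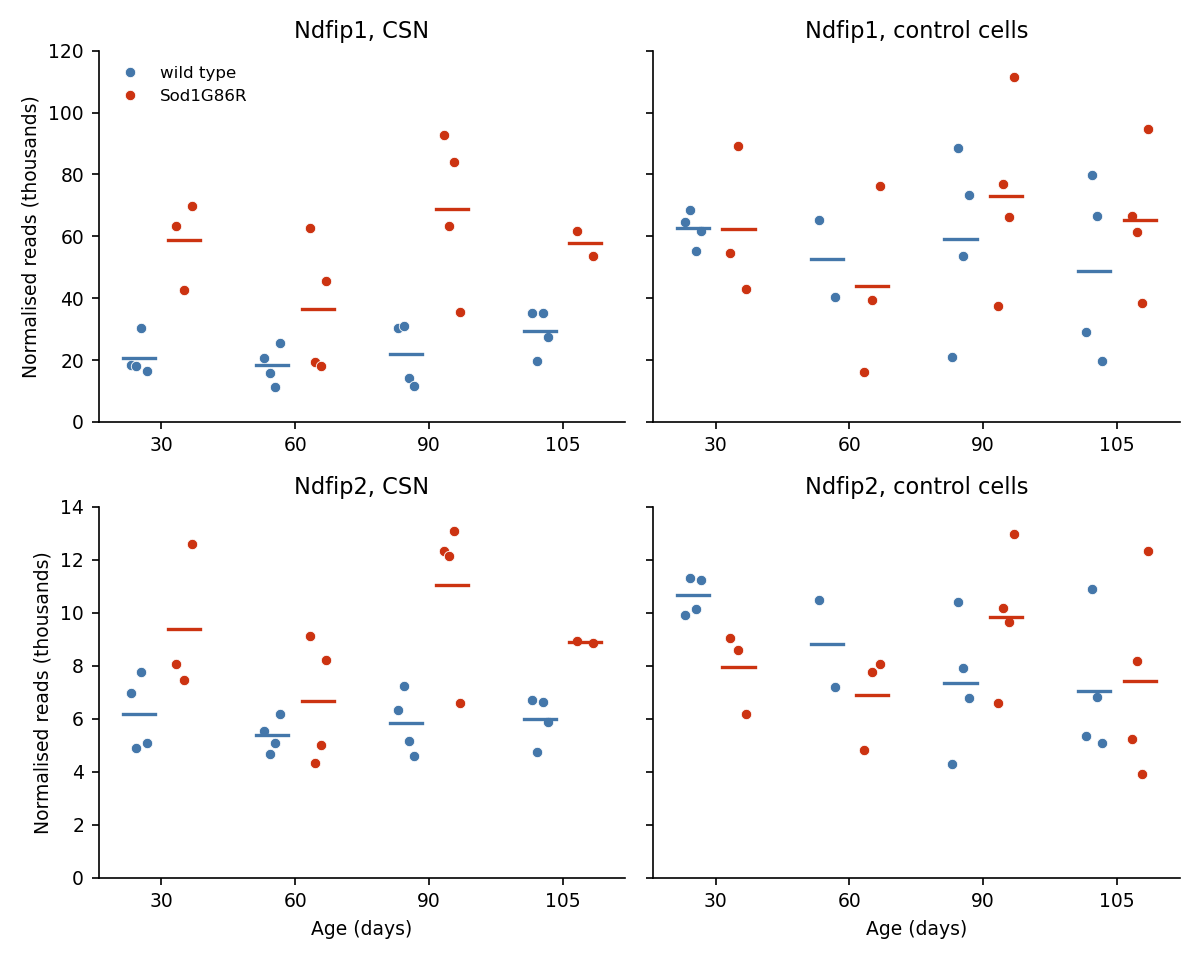
Normalised reads (axis in units of 1000) of Ndfip1 (top) and Ndfip2 (bottom) in each library against age in days, in CSN (left) and control cells (right), with wild type in blue and Sod1G86R in red; each point is a library and each bar a group mean. In CSN, 11 of 13 Sod1G86R points of Ndfip1 and 9 of 13 of Ndfip2 lie above the highest wild-type point, while in control cells the genotypes overlap at every age except for Ndfip2 at 30 days.

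Ndfip2 was the member whose rise was tested. Its levels followed those of the chosen Ndfip1 (r of 0.92 over 29 CSN libraries). Ndfip2 is thus not tested independently of that choice. It stood at 8077, 7450 and 12606 normalised reads at 30 days in Sod1G86R CSN, at 9107, 4345, 5004 and 8216 at 60 days, at 12323, 12136, 13077 and 6590 at 90 days, and at 8845 and 8926 at 105 days. Wild-type CSN gave 6980, 4894, 7782 and 5098, then 5532, 4677, 5104 and 6182, then 6331, 7233, 5156 and 4594, and last 5890, 6724, 4757 and 6643. The wild-type libraries kept within a narrow band, and 9 of 13 Sod1G86R libraries lay above its top, with 1 below its bottom. The low Sod1G86R libraries at 60 days were replicates 3 and 5 again, the ones that were low for Ndfip1.

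The rise of Ndfip2 had a 95% interval of 0.31 to 0.84 on the log2 scale, and 886 genes rose more. At single ages its log2 fold changes were 0.59, 0.25, 0.89 and 0.58 from 30 to 105 days. Only the 90-day value passed (limma adjusted p = 0.0321, others 0.312 to 0.817). The share of all genes that passed was 0.0157%, 0.0314%, 4.86% and 0.021% in the order of the ages. It did not pass at 90 days without a filter on low values (adjusted p = 0.104) or after quantile normalisation (0.0581), nor without replicate 3, 5 or 6 of Sod1G86R or 7 or 9 of wild type at that age (adjusted p up to 0.136). Over the ages, Ndfip2 did not pass without the 90-day libraries (log2 fold change 0.47, adjusted p = 0.057) or with the mitochondrial share as a covariate (0.21, adjusted p = 0.636).

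The promoter of Ndfip2 is shown because its rise passed the test and the series names CREB3, whose family binds cyclic AMP response elements. RefSeq windows on GRCm38.p6 were matched for 5 members (Ndfip2, Nedd4, Wwp2, Smurf1 and Smurf2, 6 windows in all). The 200 bases directly upstream of the annotated Ndfip2 start, chr14:105258373-105258572 on the plus strand, read as follows, with the core TGACG in capitals.
Ndfip2: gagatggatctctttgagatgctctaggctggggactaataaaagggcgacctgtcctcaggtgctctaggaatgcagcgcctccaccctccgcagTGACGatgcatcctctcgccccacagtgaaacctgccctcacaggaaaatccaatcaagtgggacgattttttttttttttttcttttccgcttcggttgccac
The core begins 104 bases before the start. On both strands, TGACG was found in 2 of the 6 member windows, those of Ndfip2 and 1 window of Nedd4, and in 20.8% of all 32851 windows. The full palindrome TGACGTCA, which contains this core, was in 0 of 6 and in 1.79% of all windows. The endoplasmic reticulum stress element, CCAAT and CCACG with 9 bases between, was in 0 of 6 and in 0.119%. A match describes letters and not binding.

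The ligases of the Nedd4 subgroup showed small differences in CSN. Nedd4, which acts in axon and dendrite growth, stood at 9942 ± 1718 in Sod1G86R and 9174 ± 1049 in wild type (log2 fold change 0.11, limma adjusted p = 0.389). Nedd4l, which regulates sodium channels, was at 4873 ± 899 and 5078 ± 635 (-0.07, adjusted p = 0.63). Both ligases overlapped widely between the genotypes.

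The other ligases lay in the same narrow band. Itch, best known for restraining T cells with Ndfip1, was at 1838 ± 353 and 1818 ± 255. Smurf1, a ligase for Smad proteins and RhoA, was at 932 ± 187 in Sod1G86R and 1048 ± 147 in wild type (log2 fold change -0.17, 95% interval -0.37 to 0.02, adjusted p = 0.198). Hecw1, reported to bind mutant SOD1 protein, was at 3931 ± 796 and 3433 ± 448 (0.20, unadjusted p = 0.046, adjusted p = 0.136). Wwp1, Wwp2 and Smurf2 had log2 fold changes of 0.13, 0.07 and -0.06. The median over the 8 ligases was 0.03, beside -0.05 over all genes, and the 95% intervals of all 8 lay between -0.37 and 0.39. After quantile normalisation Nedd4, Wwp2 and Hecw1 took the opposite sign (-0.15, -0.02 and -0.004).

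**Figure D2:**
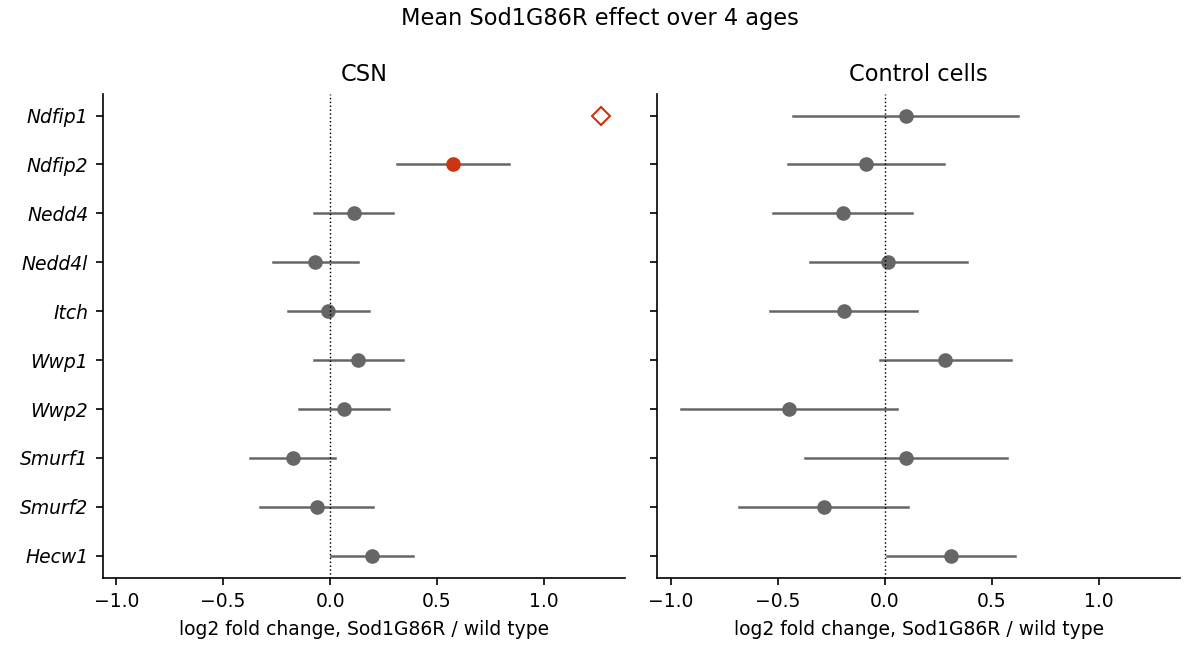
Log2 fold change of Sod1G86R over wild type (horizontal axis, mean of 4 ages) for each member in CSN and in control cells, with 95% intervals; red marks a value that passed and the open diamond marks Ndfip1, which has no test in CSN. Ndfip2 at 0.57 lies to the right of the ligase values of -0.17 to 0.20 in CSN, with intervals that overlap in part, and no member passed in control cells.

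Library measures moved with genotype in CSN. Recovered reads averaged 40.7 M ± 10.3 in Sod1G86R CSN and 32.3 M ± 6.88 in wild-type CSN. In control cells the order was the reverse, with 34.2 M in Sod1G86R and 42.2 M in wild type. At 90 days the CSN libraries held 36.9 to 58.9 M in Sod1G86R and 22.8 to 32.8 M in wild type, without overlap. The part of depth in the adaptor levels was not tested. The share of reads from mitochondrially encoded genes was 5.95% ± 2.31 in Sod1G86R CSN, below the 9.41% ± 2.92 of wild-type CSN (two-sided permutation test within ages, p = 0.00086, adjusted over 2 cell types p = 0.00172). With this share in the fit, 25 genes passed in place of 3643. The sum of 8 oligodendrocyte markers ranged from 7751 to 100135 normalised reads in Sod1G86R CSN and from 4103 to 303473 in wild type, and 0 of its 8 genes passed (median log2 fold change -0.88). Of 8 microglial markers 3 were lower (sums 510 to 8807 against 1572 to 11077), of 8 astrocyte markers 0 passed (10181 to 36846 against 6818 to 35185), and of 10 CSN markers 4 were higher (91109 to 130528 against 68336 to 117493). None of these lists held a marker at 0 in all libraries of a group. Their part in the higher adaptor levels was not tested. Without replicate 13 of Sod1G86R CSN at 105 days, 2224 genes passed, and the call of Ndfip2 held.

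In control cells, which took no part in the choice of Ndfip1, no member passed between genotypes. Ndfip1 ranged from 16090 to 111523 with a median of 63740 in Sod1G86R (n = 14), and from 19749 to 88583 with a median of 63173 in wild type (n = 14). These ranges overlapped almost wholly, and the log2 fold change was 0.10 (SE 0.257, 95% interval -0.43 to 0.62, limma adjusted p = 0.894). Ndfip2 ranged from 3913 to 12987 with a median of 8127 in Sod1G86R and from 4313 to 11310 with a median of 8925 in wild type (-0.09, 95% interval -0.45 to 0.28, adjusted p = 0.862). Of the 10 members 0 passed, where 0.0716% of 20944 genes did. At an unadjusted p under 0.05 the count was 1, Hecw1 (log2 fold change 0.31, limma adjusted p = 0.413), and edgeR and DESeq2 also called 0. The other ligases stood at -0.45 for Wwp2, -0.28 for Smurf2, -0.20 for Nedd4, -0.19 for Itch, 0.02 for Nedd4l, 0.10 for Smurf1 and 0.28 for Wwp1, and leaving out any 1 library gave no call.

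By age, the adaptors in control cells had no common direction. Ndfip1 went from -0.07 and -0.50 at 30 and 60 days to 0.39 and 0.57 at 90 and 105 days, and none passed, where 1.4% of genes did at 60 days and 0.00955% at each of the other ages. At 30 days all 3 Sod1G86R control libraries had less Ndfip2 (6181 to 9036) than all 4 wild-type ones (9927 to 11310), and 5.25% of genes showed this pattern. That difference did not pass (-0.44, limma adjusted p = 0.98). No ligase passed at a single age in either cell type. At 60 days in control cells, ligase log2 fold changes ran from -1.67 for Wwp2 to 0.89 for Hecw1 (lowest limma adjusted p = 0.0998). Against 2 wild-type libraries, Nedd4l, Wwp1 and Hecw1 were higher there and Itch, Wwp2 and Smurf1 lower, without overlap. The share of all genes with this pattern was not counted. Astrocyte, microglial and oligodendrocyte markers had medians of -2.13, -1.85 and -1.25 there, and neuronal lists 0.22 to 0.65. Their part in the ligase values was not tested.

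The difference of the genotype effect between the cell types was tested for the other 9 members. That of Ndfip2 was 0.66 larger in CSN on the log2 scale (SE 0.221, 95% interval 0.22 to 1.11) and did not pass (limma adjusted p = 0.0569). Nor did it pass with the mitochondrial share as a covariate or without the 60-day libraries, where no gene of the fit passed. It passed with a stricter filter on low values (limma adjusted p = 0.0457), with edgeR (0.0437) and with DESeq2 (0.0354). It also passed without any 1 of 14 libraries (adjusted p from 0.0227). In CSN these were replicate 4 at 30, 3 at 60 and 8 at 90 days in Sod1G86R, and replicate 4 at 30, 7 at 60 and 6 at 90 days in wild type. In control cells they were replicate 2 at 30, 5 and 7 at 60, 8 at 90 and 9 at 105 days in Sod1G86R, and replicate 2 at 60, 3 at 90 and 9 at 105 days in wild type. Of the 9 members 0 passed and 1 had an unadjusted p under 0.05, where 6.26% of 22032 genes passed, 3.84% as larger and 2.42% as smaller in CSN. Wwp2 had the next largest difference, 0.51 (adjusted p = 0.208), from log2 fold changes of 0.07 in CSN and -0.45 in control cells. Its ratios of means in control cells, Sod1G86R over wild type, were 0.80, 0.33, 1.31 and 0.94 from 30 to 105 days. The 60-day ratio rests on 2 wild-type libraries. The others were Nedd4 (0.31), Smurf2 (0.22), Itch (0.18), Nedd4l (-0.09), Hecw1 (-0.11), Wwp1 (-0.15) and Smurf1 (-0.27), with adjusted p from 0.267 to 0.818. The difference for Ndfip1, given without a test, was 1.17.

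The cell types themselves differed in the family's levels in wild type. Ndfip1 averaged 22552 ± 8119 over 16 CSN libraries and 56248 ± 21276 over 14 control libraries (log2 fold change -1.28, SE 0.233), given without a test. It was lower in CSN in 11 of the 14 wild-type pairs of libraries. Ndfip2 was lower in the same number of pairs (-0.49, limma adjusted p = 0.00526). Itch (-0.45, adjusted p = 0.00237) and Smurf2 (-0.42, adjusted p = 0.0191) were also lower in CSN.

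Ligases were higher in CSN as well as lower. Nedd4l was at 5078 ± 635 in CSN and 3215 ± 1093 in control cells (log2 fold change 0.78, adjusted p = 4.05e-06), higher in 13 of 14 pairs. Smurf1 was at 1048 ± 147 and 572 ± 241 (0.88, adjusted p = 1.21e-05), also in 13 of 14, and Wwp1 was higher by a smaller amount (0.32, adjusted p = 0.0174). Nedd4, Wwp2 and Hecw1 did not pass (0.03, 0.06 and 0.12). Thus 3 of the 9 tested members were higher and 3 lower, where 56.3% of 22032 genes passed, 26.8% as higher and 29.5% as lower, so the share of members is near that of all genes.

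**Figure D3:**
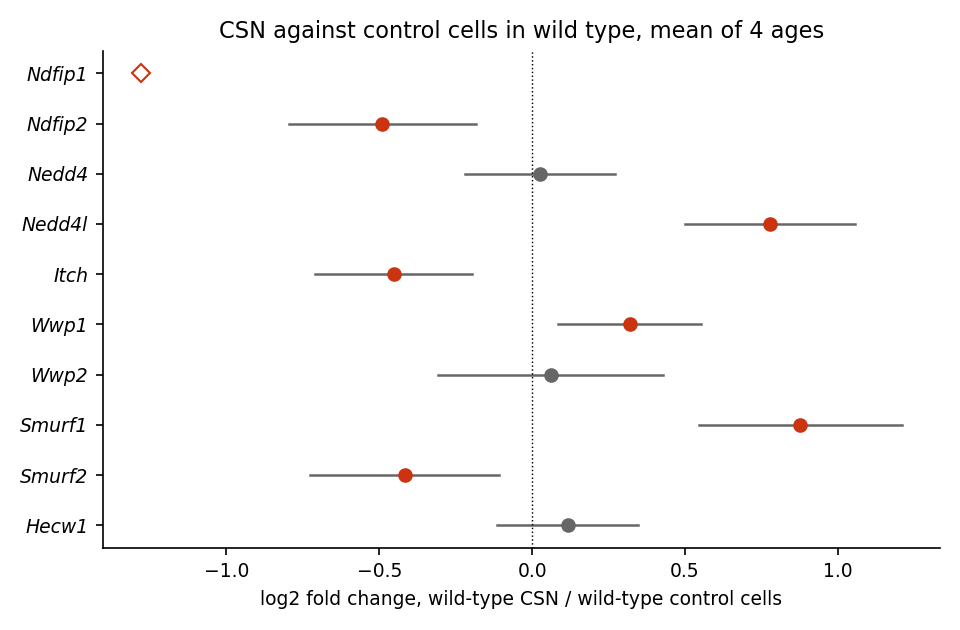
Log2 fold change of wild-type CSN over wild-type control cells (horizontal axis, mean of 4 ages) for each member with 95% intervals; red marks a value that passed and the open diamond marks Ndfip1, which has no test. Smurf1 (0.88) and Nedd4l (0.78) lie farthest to the right and Ndfip1 (-1.28) farthest to the left.

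Cell composition and the mitochondrial share moved with this comparison. The mitochondrially encoded share in wild type was 9.41% ± 2.92 for CSN but 1.44% ± 0.56 for control cells, with the lowest CSN library at 5.68% and the highest control library at 2.55%. With that share as a covariate, the log2 difference of Ndfip1 turned to 0.78 and that of Ndfip2 to 0.99 (limma adjusted p = 0.0179), and 1 member passed in place of 6. As the shares of the wild-type cell types did not overlap, these values extrapolate the fit and compare no libraries of equal share. Oligodendrocyte markers summed to 117111 to 2136496 in wild-type control libraries and to 4103 to 303473 in wild-type CSN, with 8 of 8 lower in CSN. Microglial markers (14817 to 179096 against 1572 to 11077) and upper-layer neuron markers (15712 to 68383 against 2299 to 4812) were lower in CSN in 8 of 8 each. Of 8 astrocyte markers 7 were lower and 1 higher, with overlapping sums (10514 to 146453 against 6818 to 35185). GABAergic markers were lower in 5 of 8 and endothelial and mural ones in 7 of 8. Of all genes 29.5% were lower in CSN. None of these markers was at 0 throughout a group. Their part in the members' differences was not tested. The call of Smurf2 was lost after quantile normalisation and without replicate 2 of wild-type control cells at 60 days (adjusted p = 0.131), and that of Wwp1 without the 60-day or the 90-day libraries (adjusted p = 0.117 and 0.109).

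In Sod1G86R the same comparison had 4 of 9 tested members higher in CSN and 0 lower, where 55.5% of genes passed, 24.9% as higher and 30.6% as lower. These were Nedd4l (log2 fold change 0.69, limma adjusted p = 8.19e-05), Smurf1 (0.60, 0.00314), Wwp2 (0.57, 0.0103) and Nedd4 (0.33, 0.0251). The adaptors were close between the cell types there, Ndfip2 at 0.17 (95% interval -0.15 to 0.49, adjusted p = 0.371) and Ndfip1 at -0.11 with no test. Ndfip1 was lower in CSN in 7 of 11 Sod1G86R pairs and Ndfip2 in 5 of 11. Wwp1 (0.17), Hecw1 (0.003), Smurf2 (-0.20) and Itch (-0.27) did not pass either (adjusted p from 0.0869 to 0.986). The call of Nedd4 was lost without replicate 3 at 30 days or replicate 9 at 105 days of Sod1G86R CSN, and without replicate 4 at 30 days or replicate 3 at 60 days of Sod1G86R control cells (adjusted p up to 0.0923).

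Levels of different genes were compared per length, as normalised reads per kb of exon. The length is that of all annotated exons of a gene, from 6162 bases for Smurf2 to 17659 for Nedd4l. It is not that of the expressed transcripts, so orders and ratios between genes depend on the annotation. In wild-type CSN, Ndfip1 was at 3562 ± 1282 per kb, Nedd4 at 836 ± 95.6, Ndfip2 at 506 ± 87.8 and Nedd4l at 288 ± 36. The ranges of the first 3 did not overlap with that of the next gene in the order. Hecw1 (234 ± 30.5), Wwp1 (221 ± 37.5), Itch (187 ± 26.3), Smurf1 (165 ± 23.3), Wwp2 (134 ± 24.2) and Smurf2 (105 ± 23.2) followed, and from Nedd4l downward no neighbour differed from the next beyond its spread. Ndfip1 stood above Nedd4, the most abundant ligase, in all 16 of these libraries.

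The order at the top was alike in the other groups and changed further down. In Sod1G86R CSN, Ndfip1 was at 8662 ± 3533 per kb, Nedd4 at 906 ± 157 and Ndfip2 at 777 ± 247, the latter pair overlapping. Wild-type control cells had Ndfip1 at 8885 ± 3361, Nedd4 at 841 ± 222 and Ndfip2 at 729 ± 215, again with the latter pair overlapping. Itch (267 ± 106) stood above Nedd4l (182 ± 61.9) there, and Smurf1 came last (90.3 ± 38.1). In Sod1G86R control cells Ndfip1 was at 9835 ± 4134, and Smurf1 was again last (99.4 ± 37.8).

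**Figure D4:**
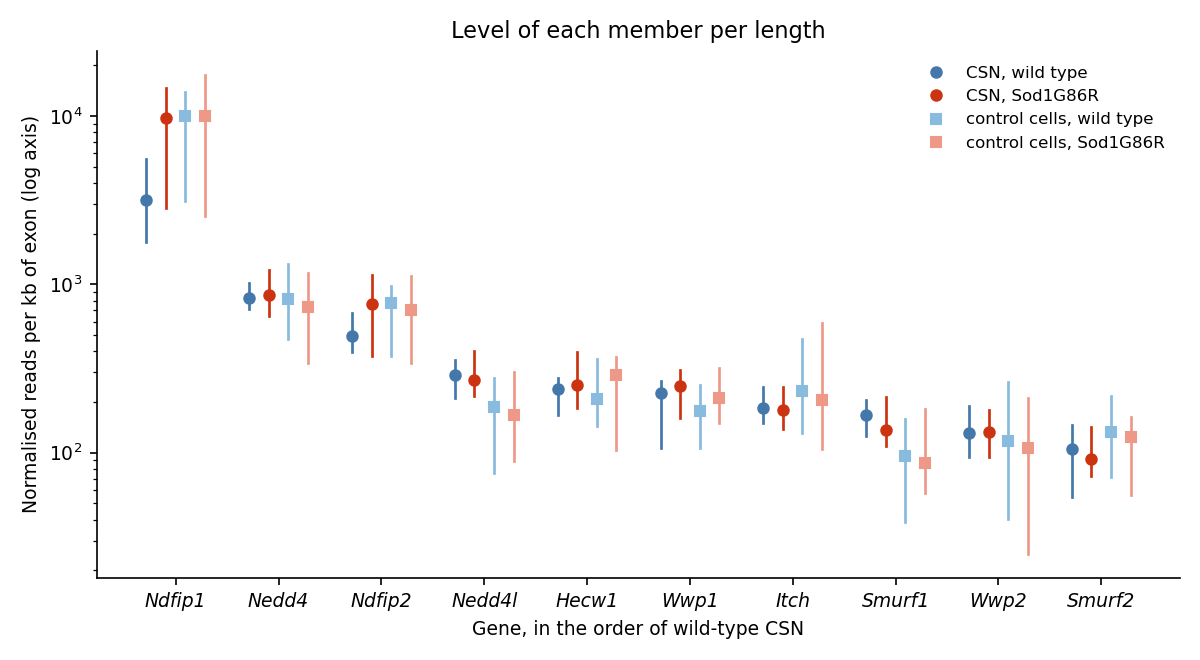
Normalised reads per kb of exon (log axis) of each member, ordered by wild-type CSN, in CSN (circles) and control cells (squares) of both genotypes; symbols are medians and lines run from the lowest to the highest library. Ndfip1 lies above every ligase in each group, and its wild-type CSN values, 1780 to 5541, are the lowest of its 4 groups by median.

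Summed adaptors were set against summed ligases in each library. The ratio per kb averaged 4.14 ± 1.54 in Sod1G86R CSN against 1.86 ± 0.562 in wild-type CSN. The adaptor sum was 9439 ± 3762 and 4068 ± 1352 per kb, and the ligase sum 2269 ± 298 and 2170 ± 151. In control cells the ratio was 5.34 ± 2.01 in Sod1G86R and 4.70 ± 1.76 in wild type. Ndfip1 made up 71.6% ± 8.69 of the family's reads per kb in Sod1G86R CSN, 55.5% ± 7.93 in wild-type CSN, and 76.6% ± 7.69 and 74.0% ± 7.83 in the control cells of the same genotypes. These ratios hold the values that chose Ndfip1 and are given without a test.

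Age was read as 105 against 30 days within each cell type and genotype. Of the 9 members tested in CSN and the 10 in control cells 0 passed in each of the 4 comparisons, where 0%, 0%, 0.00955% and 0% of genes did in wild-type CSN, Sod1G86R CSN, wild-type control cells and Sod1G86R control cells. At an unadjusted p under 0.05 the counts were 0, 0, 2 and 2. The log2 fold change of Ndfip1 was 0.50 and 0.003 in CSN, without a test, and -0.58 (limma adjusted p = 0.574) and 0.07 (0.977) in control cells. The other 9 members ran from -0.31 for Smurf2 to 0.38 for Wwp1 in wild-type CSN and from -0.12 for Smurf1 to 0.31 for Hecw1 in Sod1G86R CSN.

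The members with small unadjusted p were Itch and Wwp2 in control cells. In wild-type control cells Itch stood at 4444, 3736, 4581 and 2068 at 30 days and at 1271, 2395, 2119 and 1448 at 105 days, with the lowest early library inside the later range. In Sod1G86R control cells it stood at 2810, 5681 and 3452 at 30 days and at 1157, 2122, 1023 and 2062 at 105 days, without overlap, a pattern that 4.03% of genes showed. The log2 fold changes were -1.0 (limma adjusted p = 0.178) and -1.31 (adjusted p = 0.325). Wwp2 had -1.04 and -1.03 (adjusted p = 0.345 and 0.632). Oligodendrocyte markers had median log2 fold changes of -2.21 and -1.13 in the same comparisons with 0 of 8 passing, and their part in the values of Itch was not tested. Itch passed in wild type without replicate 12 at 105 days (adjusted p = 0.0499).

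Within groups, Ndfip1 was set against the mitochondrially encoded share (both log2). In CSN, where the values of Ndfip1 chose the gene, the relations are given without a test. Over the 16 wild-type CSN libraries Pearson's r was -0.77 and Spearman's rho -0.74. Without the 2 libraries farthest from the median share they were -0.69 and -0.64, and after the age means were subtracted -0.79 and -0.77. Over the 13 Sod1G86R CSN libraries r was -0.69 and rho -0.73, with -0.58 and -0.76 without the 2 farthest libraries and -0.70 and -0.59 after the age means were subtracted. Each setting thus kept the negative sign in both genotypes.

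In control cells the relations were tested by permutation, with p adjusted over the 6 relations computed. Over the 14 wild-type control libraries r was -0.65 (permutation p = 0.0113, adjusted p = 0.0226) and rho -0.43 (permutation p = 0.127, adjusted p = 0.191). Without the 2 farthest libraries the relation no longer held (r -0.39, adjusted permutation p = 0.255; rho -0.13, adjusted p = 0.701). With the age means subtracted it passed on both measures (r -0.75, adjusted permutation p = 0.00816; rho -0.69, adjusted p = 0.0259). Over the 14 Sod1G86R control libraries r was -0.23 (permutation p = 0.441, adjusted p = 0.529) and rho -0.22 (permutation p = 0.453, adjusted p = 0.544).

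Ndfip1 was set against Sod1 in the same way. In Sod1G86R CSN r was 0.11 and rho 0.13, without a test. In Sod1G86R control cells r was 0.53 (permutation p = 0.0511, adjusted p = 0.0767) and rho 0.52 (permutation p = 0.0624, adjusted p = 0.125). With the age means subtracted r was 0.54 (adjusted permutation p = 0.0724) and rho 0.63, which passed (adjusted permutation p = 0.0357). Without the 2 farthest libraries r was 0.56 (adjusted permutation p = 0.107).

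**Figure D5:**
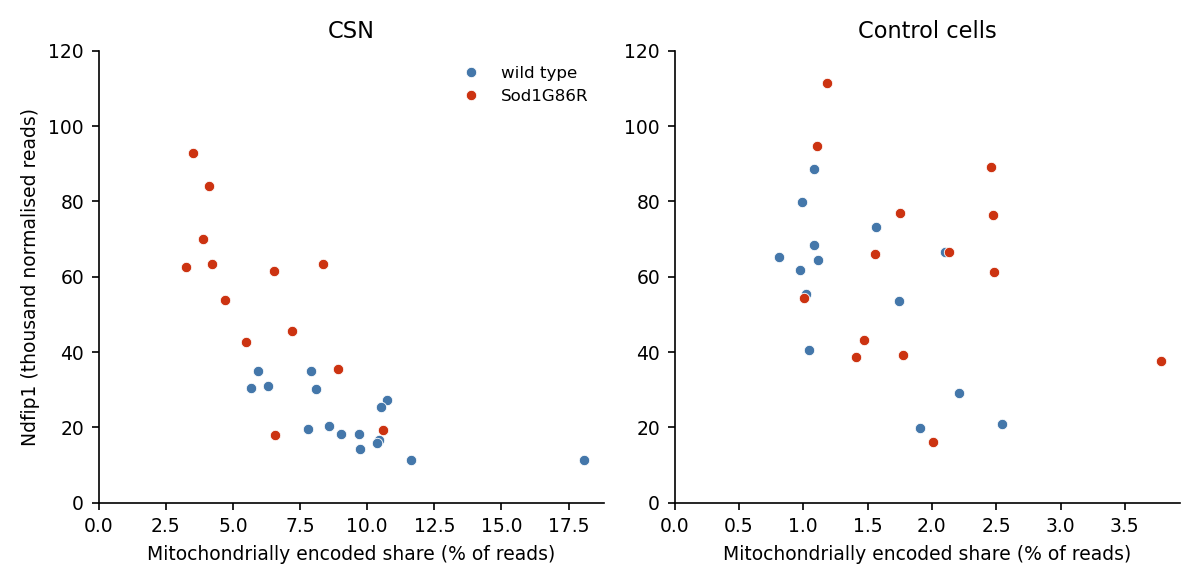
Ndfip1 (normalised reads, vertical, in units of 1000) against the share of reads from mitochondrially encoded genes (percent, horizontal; the scales of the panels differ) in CSN and control cells, 1 point per library, with wild type in blue and Sod1G86R in red. In CSN the points fall from the upper left to the lower right in both genotypes (r of -0.77 in wild type and -0.69 in Sod1G86R, on log2 values).

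The members were compared with Ndfip1 across the libraries of a cell type by Pearson's r of log2 values, as a description of libraries that share genotype, age and depth effects. Ndfip2 followed it most closely, with r of 0.92 over 29 CSN libraries and 0.78 over 28 control libraries, where 1.18% of 9070 and 2.18% of 9705 genes had a higher r. The ligases were spread out in CSN, from 0.55 for Hecw1 and 0.51 for Nedd4 to -0.60 for Smurf1, around a median of 0.30 over all genes. In control cells they ran from 0.50 for Nedd4 to -0.32 for Smurf2, around a median of 0.17.

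The genes most like Ndfip1 in CSN were Atp6v1c1 (r of 0.98), a subunit of the vacuolar proton pump, Tmx2 (0.97), Sucla2 (0.97), a mitochondrial succinate-CoA ligase subunit, Pcmt1 (0.96), a protein repair methyltransferase, and Dync1i1 (0.96), a dynein intermediate chain. In control cells they were Atp6v1c1 (0.93), Atp6v0c (0.93), Atp6v1b2 (0.92), Tecr (0.91) and Wee1 (0.91).

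Other genes of the pathway were read from 5 lists drawn up by function, with earlier results of these data known. The list of other PPxY adaptors also held Hecw2, a further ligase of the family. Among 24 other PPxY adaptors, regulators and cofactors, 3 were higher in Sod1G86R CSN and 0 lower (median log2 fold change 0.01), where 12.8% of all genes were higher and 6.31% lower, so the share of higher genes is near that of all genes. They were Rnf11, a ligase partner (0.38, limma adjusted p = 0.00663), Wbp2 (0.44, 0.00671) and the 14-3-3 protein gene Ywhah (0.49, 0.0074). N4bp2 had -0.47 and did not pass (0.064).

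Ubiquitin-conjugating enzymes and deubiquitinases of the family had 5 of 13 members higher and 0 lower beside the same shares of 12.8% and 6.31%, with a median of 0.22 beside -0.05 over all genes. Ube2e1, a conjugating enzyme, was at 1582 ± 394 in Sod1G86R CSN and 972 ± 240 in wild type (log2 fold change 0.71, limma adjusted p = 0.00051). Otub1, a deubiquitinase that also restrains conjugating enzymes, was at 18524 ± 5503 and 10795 ± 2294 (0.76, adjusted p = 0.000522). Ube2d1 (0.46, 0.00452) and Ube2b (0.32, 0.0124) were higher as well.

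Reported substrates and targets were mixed, with 5 higher and 3 lower of 35 measured, near the 12.8% and 6.31% of all genes. The smallest p-values were those of Rnf157 (0.31, limma adjusted p = 0.00764), the Smurf target Smad2 (0.54, 0.00808), the endosomal sorting gene Tsg101 (0.46, 0.0181) and the Nedd4 partner Grb10 (-0.51, 0.0193). Of 20 genes for iron and metal handling, 1 passed, the ferritin cargo receptor Ncoa4 (0.38, adjusted p = 0.0464), against a median of -0.002. Of 18 other HECT ligases 3 were higher and 0 lower, beside the same 12.8% and 6.31%, among them Herc3 (0.40, 0.00866) and Arel1 (0.36, 0.0338). In control cells 0 members of each of the 5 lists passed for genotype as the mean over ages. At 60 days 2 of 36 substrates and 1 of 20 iron and metal genes were lower there, where 1.4% of all genes passed.

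Between the cell types in wild type, 14 of 20 iron and metal genes were lower in CSN and 2 higher (median log2 fold change -1.05), and 11 of 18 other HECT ligases were higher and 2 lower (0.42). Other PPxY adaptors had 4 higher and 7 lower of 24, conjugating enzymes and deubiquitinases 2 and 6 of 13, and substrates 10 and 13 of 36. Of all genes 26.8% were higher and 29.5% lower. For the difference of the genotype effect, adaptors had 2 higher and 0 lower, enzymes 1 and 0, substrates 0 and 1, and the other lists none, where 3.84% of all genes had a larger and 2.42% a smaller effect in CSN.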

How the data were processed

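The deposited table holds, per its file header, normalised read counts, treated here as signal values that the authors had scaled by library. The labels' series design text gives STAR 2.7.0 on GRCm38, Ensembl 87 annotation and STAR gene counts, and edgeR and mm10 appear in the submitters' processing notes with no role. For the normalisation, the method is not given in these sources. Within each library 100% of values were whole multiples of 1 step (tolerance 0.001 of a step), so whole reads were recovered, 22.2 to 64.2 M per library, with no molecular identifiers.

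Columns were mapped to samples by title, and 16 groups were formed from cell type, genotype and the age in the title. A gene was kept where 3 or more libraries of a fit reached 34.6. Then log2(value + 34.6) was fitted with limma 3.58.1 (R 4.3.3, trended and robust) with 1 coefficient per group, for CSN, for control cells and for all libraries, and p-values were adjusted by Benjamini-Hochberg over all genes of a fit. The fold scale understates changes of low genes. Libraries of both cell types that share age, genotype and number were read as 1 animal, which no label states, and treated as independent, since their residual correlation ran from -0.318 to 0.282 over 25 pairs (over 0.1 in 7), and the animal as a block was an alternative that changed no member's call. Apart from title numbers nothing describes replication, so p-values measure the spread between these libraries. Permutation tests used 100000 resamples and were two-sided.

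The mitochondrially encoded share counts all genes whose symbols begin with mt-, ribosomal RNA included. Exon lengths and coordinates are those of GENCODE M21. All 10 members were named in the comparisons of genotype and cell type as means over ages, and by counts or ranges in those at single ages and between ages. Ndfip1 was tested only in control cells. For each pathway list, counts and up to 4 members with the smallest p were named, apart from an item withheld for evaluation that is not reported here, and likeness used the 5 highest correlations among genes with a mean of at least 10 times the pseudocount. The members and lists were chosen with earlier results of these data known. Alternatives were other pseudocounts and filters, quantile normalisation, replicate blocks, tests of the recovered reads by edgeR 4.0.16 and by DESeq2 1.42.0, only the libraries compared, the mitochondrial share as a covariate, and leaving out libraries or ages. The fits were tested on simulated data. Figures were drawn with matplotlib 3.10.9.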

Additional observations from a re-analysis of the deposited data

Results flagged for a closer look

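Within groups of 4 libraries, 8 of 110 combinations of member and group held a library far from the other 3, by Dixon's gap over the range at its 95% critical value of 0.829. Chance gives about 1 in 20. In wild-type CSN at 30 days, Ndfip1 was at 30243 in replicate 4 and at 16588 to 18265 in the others, and Wwp1 was at 687 in replicate 1 against 1233 to 1359. In Sod1G86R CSN at 90 days, Ndfip2 was at 6590 in replicate 8 against 12136 to 13077. In Sod1G86R CSN at 60 days, Nedd4 was at 10566 in replicate 7 against 8583 to 8881, and Smurf2 at 742 in replicate 1 against 539 to 562. Among control cells, Itch was at 3058 in replicate 3 of Sod1G86R at 90 days against 1822 to 1900, and at 1666 in replicate 9 of wild type at 90 days against 2191 to 2295. Smurf1 was at 1157 in replicate 12 of Sod1G86R control cells at 105 days against 549 to 552.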

How the results depend on the processing

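Of 630 values of the members and relations under 13 kinds of alternative, 21 fell below and 7 rose past the threshold, 5 untested values of Ndfip1 moved by more than their standard error, and 29 turned sign, of which 1 had passed, that of Ndfip2 for CSN against control cells in wild type. The cause was not tested in any case. Of the 7 values that rose past the threshold, 2 were with DESeq2 and 2 with quantile normalisation. The stricter filter, edgeR and the mitochondrial covariate had 1 each. Counts of members that passed moved in the following cases, among others. In CSN for genotype the count fell to 0 under the mitochondrial covariate and to 0 without the 90-day libraries. For the difference between cell types it was 1 with the stricter filter, 1 with edgeR and 1 with DESeq2. For CSN against control cells it was 1 in wild type and 2 in Sod1G86R with the mitochondrial covariate, and 1 in Sod1G86R without the 60-day libraries.

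Sign changes with the mitochondrial covariate were, in control cells for genotype, Ndfip2 0.16, Nedd4l -0.051 and Smurf1 -0.051, for the difference Nedd4l 0.027 and Smurf1 0.021, and for CSN against control cells Ndfip1 0.78, Ndfip2 0.99 and Hecw1 -0.12 in wild type and Ndfip1 1.10 and Hecw1 -0.14 in Sod1G86R. With quantile normalisation they were, in CSN for genotype, Nedd4 -0.15, Wwp2 -0.023 and Hecw1 -0.0037, for age in Sod1G86R CSN Ndfip1 -0.02, for the difference Nedd4 -0.019 and Itch -0.059, and for Sod1G86R CSN against control cells Hecw1 -0.081. With edgeR they were Ndfip1 for age in Sod1G86R CSN -0.018 and Nedd4l in control cells -0.041, and with DESeq2 the same Ndfip1 value -0.012 and Hecw1 in Sod1G86R between cell types -0.024. Without the 60-day libraries they were Itch in CSN 0.018, Ndfip2 and Nedd4l in control cells 0.0061 and -0.12, Nedd4l and Hecw1 for the difference 0.070 and 0.17, and Hecw1 between cell types in wild type -0.031. Without the 90-day libraries they were Smurf1 in control cells -0.024 and Wwp2 between cell types in wild type -0.034.

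Leaving out each library gave ranges that crossed 0 for Itch (-0.060 to 0.029) and Smurf2 (-0.13 to 0.0081) in CSN, for Ndfip1 (-0.036 to 0.24) and Nedd4l (-0.072 to 0.069) in control cells, for Ndfip1 by age in Sod1G86R CSN (-0.21 to 0.15) and Sod1G86R control cells (-0.17 to 0.36), and for Nedd4l in the difference (-0.16 to 0.0033). Between cell types they did so for Nedd4 (-0.024 to 0.076) and Wwp2 (-0.0077 to 0.13) in wild type and Ndfip1 (-0.26 to 0.026) and Hecw1 (-0.072 to 0.052) in Sod1G86R. Member counts ran from 0 to 1 for the difference and for age in wild-type control cells. Counts over all genes ran from 2224 to 4381 for genotype in CSN, 7 to 59 in control cells, 238 to 3023 for the difference and 0 to 603 for age in wild-type control cells. The difference had 0 genes with the mitochondrial covariate or without the 60-day libraries, 392 with quantile normalisation and 392 with no filter, and 3067 with DESeq2. Genotype in CSN had 1134 genes without the 90-day libraries and 2173 with no filter.

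Without the 2 farthest libraries, the relation of Ndfip1 to the mitochondrial share was -0.58 for Sod1G86R CSN, given without a test, and -0.39 for wild-type control cells (adjusted permutation p = 0.255). Same-numbered libraries of an age correlated at -0.048 to 0.493 in CSN (median 0.249, over 0.1 in 5 of 9 pairs). In control cells they correlated at -0.161 to 0.413 (median -0.042, 2 of 7). The limma consensus correlation by number was 0.269 in CSN and 0.0486 in control cells. CSN libraries thus shared some variation by number, which the reported fits leave out. With the replicate block by number, Ndfip2 in CSN stood at 0.56 (adjusted p = 0.000775) and 4862 genes passed, and neither this block nor that by the number shared across cell types changed a member's call. For the genotype mean, the fit of only the libraries compared is the fit reported. At 22.2 M reads or more per library, all members were well above the filter level. What limits the precision of their estimates was not tested.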

Other observations

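Per kb, the ratio of Ndfip1 to Ndfip2 was 10.8 ± 2.18 in Sod1G86R CSN (n = 13), 6.91 ± 1.74 in wild-type CSN (n = 16), 14 ± 4.37 in Sod1G86R control cells (n = 14) and 12.1 ± 3.50 in wild-type control cells (n = 14). Both adaptors stood higher in Sod1G86R CSN, and the ratio had the higher mean there too.

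Genes within 1 Mb of each adaptor were read after the data had been seen. Around Ndfip1, 47 genes were in the CSN fit, of which 4 were higher and 1 lower in Sod1G86R (median log2 fold change -0.01, highest 0.88), beside 12.8% and 6.31% of all genes. Around Ndfip2, 5 were in the fit, of which 0 were higher and 2 lower (median -0.32).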
